A study of Mus musculus with 6 samples.

Results

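The lysosomal genes described here were 46 genes for hydrolases, membrane proteins and the proton pump of the lysosome, with the transcription factor gene Tfeb, chosen by name from the Symbol column of the deposited table. All 46 were among its 15487 genes, and all 46 passed the filter on low values. They were measured by RNA sequencing in macrophages that flow cytometry had isolated from CT26 tumours, a mouse colon carcinoma line, 15 days after tumour challenge. The 3 Sg-C3 libraries came from CT26 tumours labelled Sg-C3, and the titles of 2 of them read as a knockout of C3, a complement component, while the 3 Sg-Con libraries came from tumours labelled Sg-Con. The guide belongs to the tumour cells by these labels, so the level of C3 in the sequenced macrophages checks no label. In both groups the macrophages carry the labels BALB/C for strain and wild type for genotype, and host age, site of implantation, treatment and whether the guide lines were clones or pools are not given in the sources used here. Whether each library had its own animal is not stated either, so the p-values reflect the spread among libraries, and that spread may be technical.

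The lysosome is an acidic compartment in which soluble hydrolases break down sugars, lipids, proteins and nucleic acids taken up or sequestered by the cell, and macrophages, which clear dead cells and debris, are rich in it. The vacuolar ATPase (V-ATPase) pumps protons into it through a membrane sector, V0, driven by a cytosolic ATP-hydrolysing sector, V1. TFEB and its relatives of the MiT/TFE family, held in the cytosol by mTORC1 signalling at the lysosomal surface, turn on many lysosomal genes through a palindromic promoter element called CLEAR, whose core is CACGTG.

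Promoter sequences are shown because that core is known from the promoters of many lysosomal genes, though not of all members. The printed set holds members that fell, with and without it, and a member that rose. Sequences are RefSeq's, build GRCm38.p6, the 250 bases before the annotated start, on the gene's own strand, with CACGTG in capitals.
Lamp1, chr8:13158911-13159160, plus strand: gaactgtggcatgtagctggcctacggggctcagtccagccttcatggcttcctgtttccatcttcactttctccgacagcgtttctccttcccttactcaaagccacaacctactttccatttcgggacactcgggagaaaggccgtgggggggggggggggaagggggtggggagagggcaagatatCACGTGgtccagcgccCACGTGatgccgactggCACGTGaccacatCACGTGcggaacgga
Sgsh, chr11:119355511-119355760, minus strand: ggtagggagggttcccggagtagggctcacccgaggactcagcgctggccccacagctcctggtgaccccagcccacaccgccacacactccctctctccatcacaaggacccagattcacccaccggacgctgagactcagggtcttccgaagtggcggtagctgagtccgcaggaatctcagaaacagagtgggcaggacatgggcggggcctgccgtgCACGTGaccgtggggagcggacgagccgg
Glb1, chr9:114400828-114401077, plus strand: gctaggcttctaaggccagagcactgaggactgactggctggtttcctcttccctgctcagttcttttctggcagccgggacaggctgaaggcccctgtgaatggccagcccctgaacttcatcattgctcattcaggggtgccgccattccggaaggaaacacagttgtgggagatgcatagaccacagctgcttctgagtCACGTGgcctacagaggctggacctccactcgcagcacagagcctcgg
Atp6v1a, chr16:44139260-44139509, minus strand: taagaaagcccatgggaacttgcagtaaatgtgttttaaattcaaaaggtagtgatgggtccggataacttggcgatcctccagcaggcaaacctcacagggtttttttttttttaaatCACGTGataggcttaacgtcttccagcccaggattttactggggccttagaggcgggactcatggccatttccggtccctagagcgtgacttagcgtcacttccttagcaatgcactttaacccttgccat
Atp6v0a1, chr11:101010148-101010397, plus strand: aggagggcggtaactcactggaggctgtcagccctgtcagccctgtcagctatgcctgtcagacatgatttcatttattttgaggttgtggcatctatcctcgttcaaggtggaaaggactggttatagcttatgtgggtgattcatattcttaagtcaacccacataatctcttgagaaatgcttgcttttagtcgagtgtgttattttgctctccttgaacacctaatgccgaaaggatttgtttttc
Psap, chr10:60277378-60277627, plus strand: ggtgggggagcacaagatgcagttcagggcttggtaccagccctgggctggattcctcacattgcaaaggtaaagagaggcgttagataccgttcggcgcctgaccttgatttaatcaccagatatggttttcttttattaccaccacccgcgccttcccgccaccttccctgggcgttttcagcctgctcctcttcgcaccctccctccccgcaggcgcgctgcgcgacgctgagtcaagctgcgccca

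RefSeq gave promoter windows of 300 bases, 250 before and 50 after the start, for 38 of the 46 members. CACGTG, which reads the same on both strands, stood in a window of 11 of the 38 genes (28.9%), against 12% of the 8856 tested genes with a window and 8.09% of all 27025 genes with one. In all 11 genes a copy also read as the longer TCACGTG on one strand, which contains the shorter word and stood in 7.32% of tested genes. With GT directly before the core and AC directly after it, the core stood in the window of 0 of the 38 genes and of 0.858% of tested genes. Lamp1 carried 4 copies, beginning 61, 45, 28 and 15 bases before the start (-61, -45, -28 and -15), and Mcoln1, Atp6v0b and Gla carried 2 each. Of the members with a window, 8 of the 22 called lower in Sg-C3 held CACGTG, as did 0 of the 2 called higher and 3 of the 14 with no call. These are letter matches only, with no test, and a missing match says only that the letters are not in that window.

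The values are FPKM, fragments scaled to gene length and to library size, so levels can be compared between genes. Library sums ran from 474579 to 487358 FPKM, and the depth read from low values was 17.6 to 19.3 megareads per library. Across all genes, on the log2 scale, Pearson r was 0.986 to 0.990 within groups and 0.945 to 0.974 between them, and no pair of libraries was identical. Genes were tested with limma on log2(FPKM + 1), and called where the Benjamini-Hochberg adjusted p over all 11198 tested genes was below 0.05. A positive log2 fold change means higher in Sg-C3, the added 1 makes changes of low genes look smaller than they are, and values with ± are means and SD with n = 3 per group. Over all tested genes the median was -0.16, so a gene at -0.16 moved as the table as a whole did.

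Most lysosomal genes were lower in macrophages from Sg-C3 tumours, and the 2 that were higher included the most abundant one, Psap. By limma, 28 of the 46 were called lower and 2 higher, and 16 did not pass, where 31.7% of all tested genes were lower and 12.7% higher (44.4% either way). In 35 members all Sg-C3 libraries lay below all Sg-Con libraries and in 3 they lay above, where 41.4% and 16.2% of all tested genes did so (57.6% either way). The median log2 fold change of the members was -0.44. After median-ratio scaling, which brings the median of all tested genes to 0.00, 16 members were lower and 3 higher, against 17.6% and 19.6% of all tested genes.

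Summed over the 45 members other than Psap, the FPKM were 3805, 3880 and 3921 in the Sg-C3 libraries and 4788, 4839 and 4649 in the Sg-Con libraries, with no overlap. With Psap added the sums were 6446, 6695 and 6930 in Sg-C3 and 7145, 6257 and 6399 in Sg-Con, and the groups overlapped. Psap alone made up 41.0% to 43.4% of the summed member FPKM in Sg-C3 libraries and 22.7% to 33.0% in Sg-Con libraries.

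**Figure D1:**
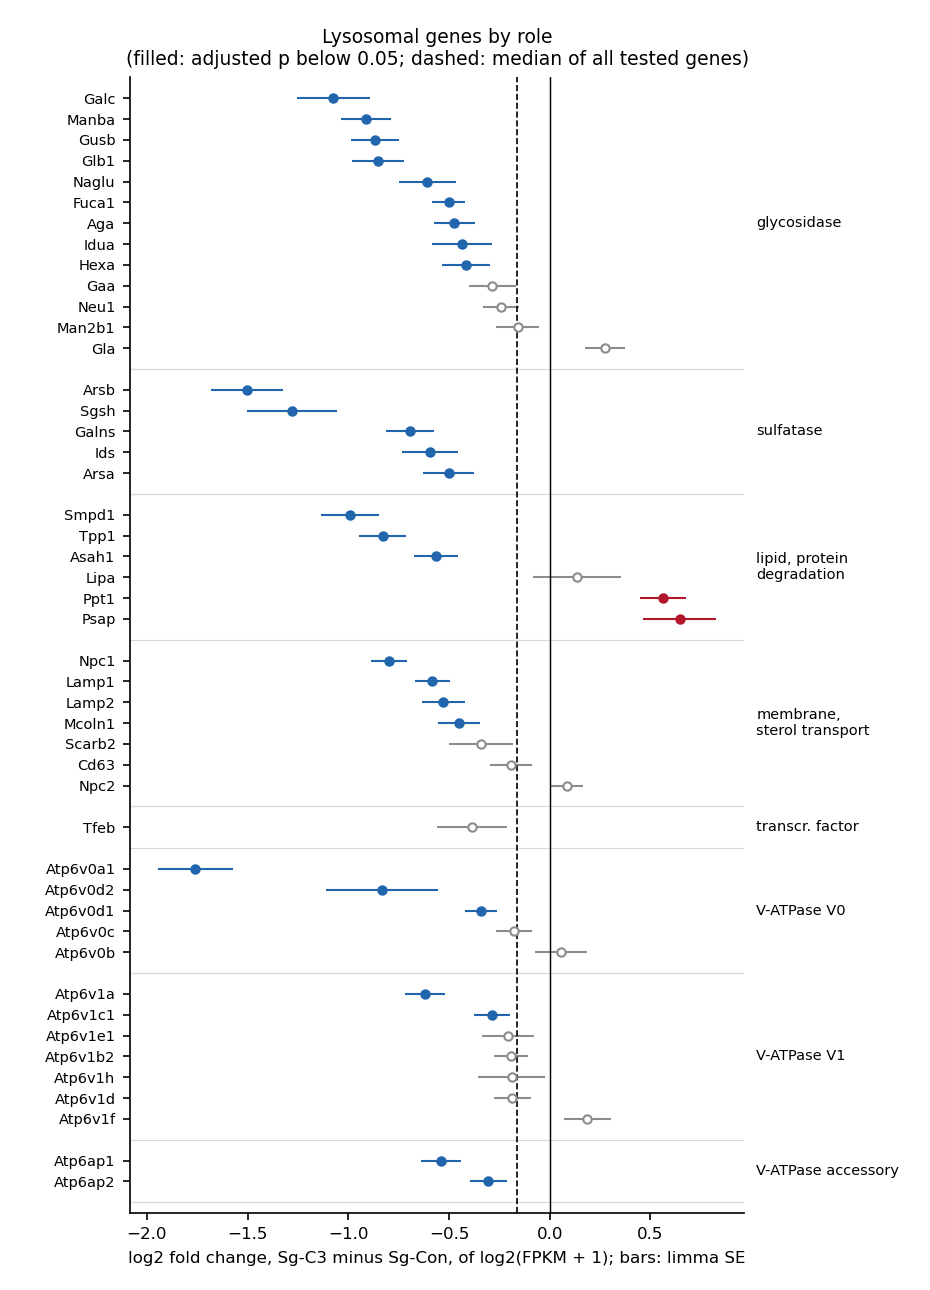
Log2 fold change (Sg-C3 minus Sg-Con, log2(FPKM + 1) scale, horizontal axis) of each of the 46 lysosomal genes, grouped by role down the page, with limma's SE as bars and filled points for adjusted p below 0.05. Points run from -1.76 for Atp6v0a1 to 0.64 for Psap, and the dashed line marks the median of all tested genes, -0.16.

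Sulfatases, which strip sulfate from glycosaminoglycans and sulfolipids, were lower throughout: 5 of 5 were called, against 31.7% of all tested genes. Their median log2 fold change was -0.69. After median-ratio scaling 3 of 5 were called, against 17.6% of all tested genes, and Ids and Arsa were not called. Arsb, which acts on dermatan and chondroitin sulfate, stood at 4.49, 5.80 and 5.94 FPKM in Sg-C3 libraries and at 17.12, 13.45 and 21.50 FPKM in Sg-Con libraries. The groups were far apart, and Arsb was 3.21-fold lower in Sg-C3 (log2 fold change -1.50, SE 0.18, limma adjusted p = 0.00207). Sgsh, the heparan sulfate sulfamidase, whose promoter is shown above, stood at 4.80, 4.50 and 8.56 FPKM in Sg-C3 and at 14.73, 17.95 and 13.66 FPKM in Sg-Con. Sg-C3 replicate 3 was the highest of its group and still below every Sg-Con library (log2 fold change -1.28, SE 0.22, adjusted p = 0.00555). Galns, which acts on keratan sulfate, stood at 14.14, 12.16 and 15.28 FPKM in Sg-C3 and at 22.64, 25.51 and 20.83 FPKM in Sg-Con. The groups did not overlap (log2 fold change -0.69, SE 0.12, adjusted p = 0.00549). The iduronate sulfatase gene Ids and the sulfatide-degrading Arsa had log2 fold changes of -0.59 and -0.50 (adjusted p = 0.0144 and 0.0185). Arsa lost its call when Sg-C3 replicate 1 or 2 was left out (adjusted p = 0.0562 and 0.0516), or Sg-Con replicate 1 or 2 (0.0515 and 0.0605).

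Glycosidases, which remove sugars from glycoproteins, glycolipids and glycosaminoglycans, and Aga, an amidase listed with them, were called lower in 9 of 13 cases and higher in none. Over all tested genes the shares were 31.7% and 12.7%. The median log2 fold change of these 13 genes was -0.47. Galc, the galactosylceramidase, had the largest change among them, with 6.41, 9.20 and 10.97 FPKM in Sg-C3 libraries and 20.58, 20.59 and 17.15 FPKM in Sg-Con libraries. Its groups were well separated, and Galc was 2.19-fold lower in Sg-C3 (log2 fold change -1.07, SE 0.18, adjusted p = 0.00522). Manba, the beta-mannosidase, stood at 8.86, 9.39 and 12.08 FPKM in Sg-C3 and at 20.58, 19.66 and 19.05 FPKM in Sg-Con. Its Sg-Con libraries lay close together, and its Sg-C3 libraries were all lower (log2 fold change -0.91, SE 0.13, adjusted p = 0.00289). Gusb, the beta-glucuronidase, stood at 87.68, 98.30 and 116.44 FPKM in Sg-C3 and at 193.29, 174.84 and 182.92 FPKM in Sg-Con. The change was of nearly the same size as for Manba at a higher level (log2 fold change -0.87, SE 0.12, adjusted p = 0.00277). Glb1, the beta-galactosidase, stood at 19.25, 19.49 and 24.23 FPKM in Sg-C3 and at 40.87, 41.47 and 33.74 FPKM in Sg-Con. Its groups did not overlap either (log2 fold change -0.85, SE 0.13, adjusted p = 0.00364).

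The other 5 genes called lower in this list changed less. Their log2 fold changes were -0.61 for Naglu, -0.50 for Fuca1, -0.47 for the amidase gene Aga, -0.44 for Idua and -0.41 for Hexa, the alpha subunit of beta-hexosaminidase. After median-ratio scaling Naglu, Aga, Idua and Hexa were not called, which left 5 of 13 lower, against 17.6% of all tested genes. Hexa (adjusted p = 0.0273) also lost its call when Sg-C3 replicate 1 or 2 was left out (0.0787 and 0.0937), or Sg-Con replicate 1 or 2 (0.0728 and 0.055). Idua (adjusted p = 0.0472) lost its call on leaving out any of the same libraries, at 0.138, 0.143, 0.132 and 0.114. Gaa, which degrades glycogen, the sialidase gene Neu1 and the alpha-mannosidase gene Man2b1 did not pass, at log2 fold changes of -0.29, -0.24 and -0.16 (adjusted p = 0.0807, 0.0574 and 0.260). Gla, the alpha-galactosidase A, stood apart from the other glycosidases, with 91.08, 94.69 and 82.49 FPKM in Sg-C3 and 66.45, 75.58 and 79.45 FPKM in Sg-Con. All its Sg-C3 libraries were above all Sg-Con libraries, and it missed the threshold as deposited (log2 fold change 0.27, SE 0.10, adjusted p = 0.0611) but passed after median-ratio scaling (0.47, adjusted p = 0.0189), with array weights (0.28, adjusted p = 0.0412) and with Sg-C3 replicate 3 left out (0.33, adjusted p = 0.0468).

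The 6 genes of lipid and protein degradation went both ways, 3 lower and 2 higher, against 31.7% and 12.7% of all tested genes. The counts were the same after median-ratio scaling, against 17.6% and 19.6%. Smpd1, the acid sphingomyelinase, stood at 5.01, 3.90 and 5.77 FPKM in Sg-C3 libraries and at 10.10, 11.94 and 9.93 FPKM in Sg-Con libraries. It was 2.18-fold lower in Sg-C3, with no overlap (log2 fold change -0.99, SE 0.14, adjusted p = 0.00341). Tpp1, a tripeptidyl peptidase, stood at 48.70, 55.57 and 63.73 FPKM in Sg-C3 and at 104.45, 102.58 and 92.59 FPKM in Sg-Con. The groups were again apart (log2 fold change -0.83, SE 0.12, adjusted p = 0.00301). Asah1, the acid ceramidase, averaged 95.7 ± 11.5 FPKM in Sg-C3 and 141 ± 7.81 FPKM in Sg-Con (log2 fold change -0.56, adjusted p = 0.00743).

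Psap is the precursor of the saposins, which present sphingolipids to several of these enzymes. It is counted here with the hydrolases, though it is not one. Psap stood at 2641, 2815 and 3009 FPKM in Sg-C3 and at 2357, 1418 and 1750 FPKM in Sg-Con. Every Sg-C3 library was above every Sg-Con library, but the Sg-Con libraries were spread widely, with replicate 1 close to the Sg-C3 values (log2 fold change 0.64, SE 0.18, adjusted p = 0.0254). The call of Psap ended without Sg-C3 replicate 1, 2 or 3 (adjusted p = 0.0513, 0.0763 and 0.0634), without Sg-Con replicate 2 or 3 (0.0527 and 0.0636) and after quantile normalization, which lowered its log2 fold change to 0.23 (adjusted p = 0.417). Ppt1, which removes palmitate from proteins, stood at 173.34, 203.80 and 212.22 FPKM in Sg-C3 and at 145.99, 131.62 and 120.58 FPKM in Sg-Con. It was 1.48-fold higher in Sg-C3 (log2 fold change 0.56, SE 0.11, adjusted p = 0.00871) and was called under all 13 alternatives. Lipa, the acid lipase that frees cholesterol from its esters, overlapped between the groups, at 39.31, 46.53 and 45.85 FPKM in Sg-C3 and 56.84, 29.95 and 36.67 FPKM in Sg-Con. Sg-Con replicate 1 held both the highest Lipa and the highest Psap of its group.

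**Figure D2:**
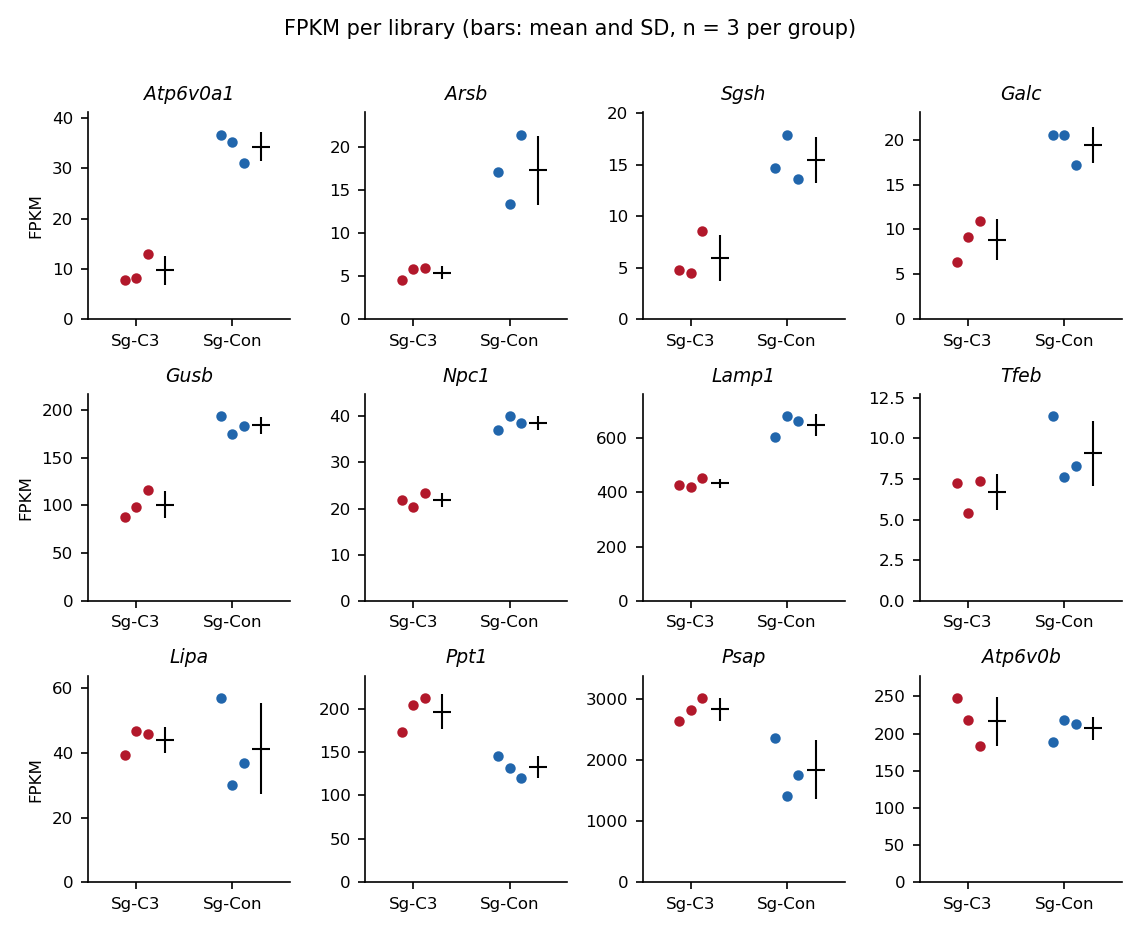
FPKM (vertical axes, each from 0) of 12 lysosomal genes in each Sg-C3 and Sg-Con library, as points, with the group mean and SD beside them (n = 3). The groups are separate for all genes shown except Lipa and Atp6v0b, with Sg-C3 above Sg-Con only for Ppt1 and Psap among the separate ones.

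Among the 7 genes of membrane proteins and sterol transport, 4 were called lower and none higher, against 31.7% and 12.7% of all tested genes. After median-ratio scaling 2 were lower, against 17.6%. Lamp1, a major glycoprotein of the lysosomal membrane and the gene with 4 CACGTG copies, stood at 428.01, 420.47 and 451.87 FPKM in Sg-C3 libraries and at 604.93, 681.42 and 663.84 FPKM in Sg-Con libraries. The gap between the groups was larger than the spread within either (log2 fold change -0.58, SE 0.09, adjusted p = 0.00353). Npc1, the membrane protein that exports cholesterol, stood at 21.77, 20.29 and 23.29 FPKM in Sg-C3 and at 36.98, 40.01 and 38.64 FPKM in Sg-Con. It changed most in this group (log2 fold change -0.80, SE 0.09, adjusted p = 0.00189). Npc2, the soluble protein that hands cholesterol to NPC1, overlapped between the groups, at 280 ± 5.82 FPKM in Sg-C3 and 265 ± 16.2 FPKM in Sg-Con (log2 fold change 0.08, adjusted p = 0.432). Lamp2 averaged 147 ± 16.5 FPKM in Sg-C3 and 211 ± 9.24 FPKM in Sg-Con, and Mcoln1, the calcium channel of the lysosome, 17.5 ± 2.05 FPKM in Sg-C3 and 24.2 ± 0.961 FPKM in Sg-Con. Both were called (adjusted p = 0.00827 and 0.0136), at log2 fold changes of -0.53 and -0.45.

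After median-ratio scaling Lamp1 and Npc1 were called and Lamp2 and Mcoln1 were not (adjusted p = 0.0555 and 0.0741), and Mcoln1 was not called without Sg-C3 replicate 2 (0.0543). The tetraspanin gene Cd63 and Scarb2, which carries beta-glucocerebrosidase to the lysosome, had log2 fold changes of -0.19 and -0.34 and did not pass (adjusted p = 0.170 and 0.114). Tfeb itself stood at 7.27, 5.41 and 7.38 FPKM in Sg-C3 and at 11.37, 7.61 and 8.28 FPKM in Sg-Con. All Sg-C3 libraries were below all Sg-Con libraries, but by little against the spread, and Tfeb did not pass (log2 fold change -0.38, SE 0.17, adjusted p = 0.107) as deposited or under any of the 13 alternatives. Its level says nothing of where the TFEB protein was in the cell.

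Of the 14 proton pump genes 7 were called lower and none higher, against 31.7% and 12.7% of all tested genes, and their median log2 fold change was -0.25. After median-ratio scaling 3 were lower, Atp6v0a1, Atp6v1a and Atp6ap1, which is near the 17.6% of all tested genes, and the median was -0.06. The largest change of all 46 genes was that of Atp6v0a1, an isoform of the a subunit that forms the proton path of V0. It stood at 7.75, 8.24 and 13.02 FPKM in Sg-C3 libraries and at 36.76, 35.30 and 31.06 FPKM in Sg-Con libraries. It was 3.55-fold lower in Sg-C3 (log2 fold change -1.76, SE 0.19, adjusted p = 0.00163) and was called under all 13 alternatives.

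The a subunit has other isoforms, and the a3 gene Tcirg1, named here with the a2 gene as relatives of Atp6v0a1 after their values were seen, was far more abundant and went the other way. Tcirg1 stood at 252.57, 228.24 and 245.09 FPKM in Sg-C3 and at 209.13, 191.49 and 190.73 FPKM in Sg-Con (log2 fold change 0.29, SE 0.09, adjusted p = 0.0280). Its adjusted p was 0.0744, 0.0516 and 0.0592 without Sg-C3 replicate 1, 2 or 3 and 0.0755 and 0.0871 without Sg-Con replicate 2 or 3, and after median-ratio scaling its log2 fold change was 0.49 (adjusted p = 0.00489). Atp6v0a2, the a2 gene, averaged 7.87 ± 1.29 FPKM in Sg-C3 and 9.70 ± 0.312 FPKM in Sg-Con and did not pass (adjusted p = 0.0994), though it passed with array weights (0.0385) and without Sg-C3 replicate 3 (0.0203). Of the summed FPKM of these 3 genes, Atp6v0a1 made up 3.72% ± 1.03 in Sg-C3 and 14.2% ± 0.758 in Sg-Con, and Tcirg1 93.3% ± 1.44 in Sg-C3 and 81.7% ± 0.738 in Sg-Con (SD, n = 3 each). Shares within a library do not depend on how libraries are scaled to each other. They show unequal change of the genes and not which one moved.

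**Figure D3:**
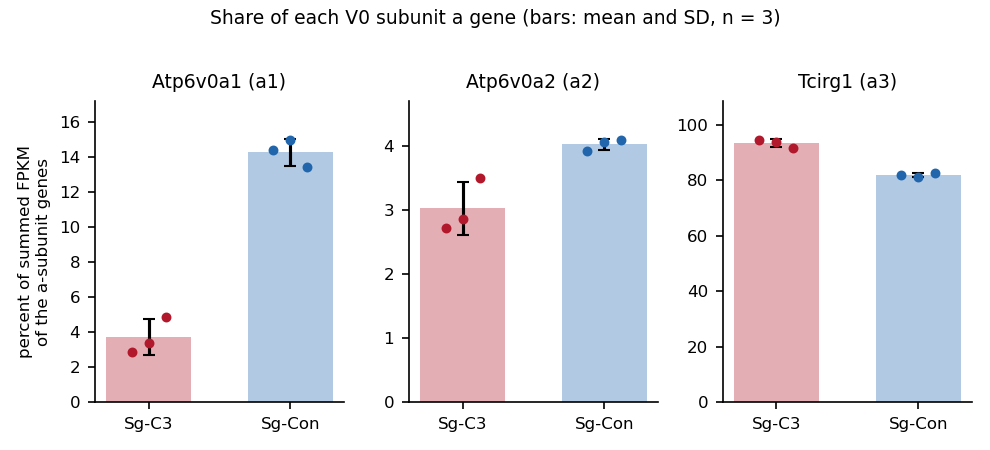
Share of each V0 subunit a gene in the summed FPKM of the 3 genes Atp6v0a1, Atp6v0a2 and Tcirg1 (percent, vertical axes from 0), with points for libraries and bars for mean and SD (n = 3). Atp6v0a1 lies between 2.90% and 4.87% in Sg-C3 libraries and between 13.4% and 14.9% in Sg-Con libraries.

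The other V0 genes changed less. Atp6v0d1, the general form of the d subunit that joins V0 to the central stalk, stood at 100.09, 98.61 and 99.91 FPKM in Sg-C3 libraries and at 129.36, 130.87 and 118.98 FPKM in Sg-Con libraries. The groups did not overlap (log2 fold change -0.34, SE 0.08, adjusted p = 0.0133), and the call ended under median-ratio scaling (0.175) or with Sg-C3 replicate 2 left out (0.0507). Atp6v0d2, the form known from osteoclasts and some macrophages, was the lowest member of all, at 1.83, 0.50 and 2.27 FPKM in Sg-C3 and at 3.69, 3.24 and 2.94 FPKM in Sg-Con. At these levels its change was uncertain (log2 fold change -0.83, SE 0.28, adjusted p = 0.0453), and the adjusted p lay between 0.0501 and 0.108 under 10 of 12 alternatives that could be run, with log2 fold changes of -1.27 at a pseudocount of 0.1 and -0.49 without Sg-C3 replicate 2. The proteolipid ring genes Atp6v0b and Atp6v0c had log2 fold changes of 0.06 and -0.18 and did not pass (adjusted p = 0.735 and 0.141). Atp6v0c has pseudogene copies that can share its reads.

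Of the 7 V1 genes 2 were called lower, which is not above the share of all tested genes. Atp6v1a, the catalytic subunit, whose promoter is shown above, stood at 72.81, 78.72 and 68.00 FPKM in Sg-C3 and at 102.46, 117.32 and 118.85 FPKM in Sg-Con. It was 1.54-fold lower in Sg-C3, with a gap wider than the spread within groups (log2 fold change -0.62, SE 0.10, adjusted p = 0.00436). Its partner in the hydrolytic ring, Atp6v1b2, stood at 141.80, 125.26 and 123.78 FPKM in Sg-C3 and at 148.04, 149.08 and 148.87 FPKM in Sg-Con and did not pass (log2 fold change -0.19, adjusted p = 0.104), though it did after quantile normalization (-0.27, adjusted p = 0.0328). The stator gene Atp6v1c1 was called (log2 fold change -0.29, adjusted p = 0.0349), but with each library left out its adjusted p was between 0.0512 and 0.110, and after median-ratio scaling it was 0.449. The stalk genes Atp6v1d, Atp6v1e1, Atp6v1f and Atp6v1h had log2 fold changes of -0.19, -0.21, 0.19 and -0.19 and did not pass. Both accessory genes were called lower, Atp6ap1 at -0.54 (adjusted p = 0.00634) and Atp6ap2, which also encodes the prorenin receptor, at -0.31 (adjusted p = 0.0320). Atp6ap2 lost its call without Sg-C3 replicate 1 or 3 (0.0877 and 0.0748) and without Sg-Con replicate 1, 2 or 3 (0.060, 0.0675 and 0.0973).

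The libraries of a group also differed among themselves. Within Sg-C3, replicate 3 held the highest value in 22 of the 24 hydrolase genes, Psap counted among them, and replicate 1 the lowest in 18. For the 14 proton pump genes it was replicate 1 that was highest in 7 and replicate 3 that was lowest in 8. Within Sg-Con, replicate 1 was highest in 13 hydrolase genes and lowest in 10 proton pump genes, and replicate 3 was lowest in 17 hydrolase genes, the opposite of replicate 3 in Sg-C3. The sample titles of replicate 3 follow another style than the others in both groups, and whether that marks a batch is not stated. With title style as a covariate, an alternative added after seeing the data, 15 hydrolase genes were lower and 2 higher, and 4 proton pump genes were lower. Hexa, Idua, Atp6v0d2, Atp6v1c1 and Atp6ap2 were then not called (adjusted p = 0.0514, 0.0752, 0.0611, 0.0672 and 0.0634). Only 1 library per group has the other style, so it gives no value of its own. Neutrophil markers differed between the same Sg-C3 libraries, with a summed 1332 FPKM in replicate 1, 697 in replicate 2 and 377 in replicate 3, against 137 to 216 in Sg-Con. Most of each Sg-C3 sum was S100a8 (393, 184 and 85.8 FPKM) and S100a9 (734, 409 and 189 FPKM). Csf3r was nearly level over these libraries, at 54.74, 57.69 and 51.41 FPKM. Mmp8 had a lower mean in Sg-C3 (9.50 ± 6.37 FPKM) than in Sg-Con (19.0 ± 5.85 FPKM) and was not called. Without Sg-C3 replicate 1, 14 hydrolase and 4 proton pump genes were lower. The proton pump count was also 4 without Sg-C3 replicate 2 or any 1 of the Sg-Con libraries, and 5 without Sg-C3 replicate 3.

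Markers of macrophages and of other cells moved with the groups too. Of 10 macrophage markers 6 were lower and none higher, as deposited and after median-ratio scaling. Of all tested genes 31.7% were lower and 12.7% higher as deposited, and 17.6% were lower and 19.6% higher after that scaling. The summed FPKM of the macrophage markers was 5906 to 7396 in Sg-C3 and 11529 to 14118 in Sg-Con, with the lysozyme gene Lyz2 the largest part. All 10 were above 0 in every library, and Adgre1 (F4/80) stood at 172 ± 29.8 FPKM in Sg-C3 and 173 ± 11.6 FPKM in Sg-Con. Cd68, a glycoprotein of the lysosomal membrane used as a macrophage marker, was 1.80-fold lower in Sg-C3 (adjusted p = 0.00194). Of 4 dendritic cell markers tested 3 were higher, as deposited and after median-ratio scaling, and 2 were without Sg-C3 replicate 1 or 2. All 10 listed were above 0 in every library, with a summed 45.8 to 71.2 FPKM in Sg-C3 and 13.4 to 18.7 FPKM in Sg-Con. NK and T cell markers summed to 34.8 to 42.0 and 2.48 to 6.41 FPKM, fibroblast markers to 143 to 208 and 67.5 to 93.3 FPKM, endothelial markers to 60.3 to 79.4 and 10.4 to 18.4 FPKM, and carcinoma markers to 2.43 to 3.15 and 16.3 to 29.95 FPKM, each in Sg-C3 and in Sg-Con. Single genes carried several of these sums, and other genes of the endothelial and fibroblast lists went the other way. Krt8 averaged 14.3 ± 6.73 FPKM in Sg-Con, where the carcinoma sum averaged 21.0 FPKM, and 0.323 ± 0.0551 FPKM in Sg-C3. Krt8 passed the filter on low values only through its Sg-Con libraries, so its direction was favoured by the filter. Ccr7 averaged 32.8 ± 12.4 FPKM in Sg-C3, where the dendritic cell sum averaged 57.7 FPKM, and 2.43 ± 0.986 FPKM in Sg-Con. Pecam1 averaged 61.3 ± 11.7 FPKM in Sg-C3 and 8.99 ± 4.06 FPKM in Sg-Con and was the only endothelial marker called higher of 3 tested, while Cdh5 was called lower (log2 fold change -0.71). Cdh5 passed the filter on low values only through its Sg-Con libraries, at 1.01, 2.22 and 2.30 FPKM, against 0.58, 0.88 and 0.65 FPKM in Sg-C3. It was not called after median-ratio scaling or without any 1 Sg-C3 library, and was not tested without any 1 Sg-Con library. Dcn averaged 114 ± 25.5 FPKM in Sg-C3 and 21.9 ± 5.96 FPKM in Sg-Con, and of 8 fibroblast markers tested 4 were higher and 2, Col1a2 and Thy1, lower (-0.59 and -1.38). Listed at 0 in some libraries were Cldn4 (Sg-C3) and Ly6g, Camp, Cd3g, Ncr1, Prf1 and Nkg7 (Sg-Con). Their part in the lysosomal results was not tested, and in bulk samples fewer cells of a type and less RNA per cell cannot be told apart.

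Further genes of the pathway, 112 in 5 lists, were set beside the members. The table held 106 of them and 102 passed the filter, of which 48 were called lower and 12 higher (47.1% and 11.8%), against 31.7% and 12.7% of all tested genes. The higher share was thus near that of all genes. These counts are as deposited. After median-ratio scaling fewer genes were lower in each of the 5 lists, with counts given below, and 17.6% of all tested genes were lower. Genes that sort enzymes to the lysosome, listed with Grn, whose product is itself sorted there, were lower in 11 of 18 cases and higher in none. After median-ratio scaling 5 were lower and 1 higher, against 17.6% and 19.6% of all tested genes. Grn, the progranulin gene, averaged 513 ± 68.7 FPKM in Sg-C3 and 941 ± 98.2 FPKM in Sg-Con (log2 fold change -0.88, SE 0.13, adjusted p = 0.00335). Igf2r, a mannose 6-phosphate receptor, stood at 5.25, 3.30 and 4.76 FPKM in Sg-C3 and at 6.71, 15.99 and 14.61 FPKM in Sg-Con (log2 fold change -1.24, adjusted p = 0.0165, and 0.0623 without Sg-C3 replicate 2). Nagpa, which uncovers the mannose 6-phosphate tag, the adaptor gene Ap1s1 and Vps33a, a gene of the tethering complexes of late endosomes, had log2 fold changes of -0.76, -0.65 and -0.49 (adjusted p = 0.00799, 0.00345 and 0.0075). The count of lower sorting genes was 6 when Sg-C3 replicate 1 or Sg-Con replicate 1 was left out, and 4 when Sg-C3 replicate 2 was.

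Other V-ATPase genes included 6 lower and 1 higher of 11 tested, against 31.7% and 12.7% of all tested genes. After median-ratio scaling 3 were lower and 1 higher, against 17.6% and 19.6%. The count of lower genes was 4 without Sg-C3 replicate 1 or Sg-Con replicate 2. Ccdc115, an assembly factor, averaged 12.6 ± 1.36 FPKM in Sg-C3 and 21.9 ± 0.146 FPKM in Sg-Con (log2 fold change -0.76, SE 0.10, adjusted p = 0.00266), and Vma21, another, and the V1 gene Atp6v1g1 had log2 fold changes of -0.42 and -0.55 (adjusted p = 0.0101 and 0.00497). Dmxl1, whose protein takes part in pump assembly, had -0.59 (adjusted p = 0.0112). Among MiT/TFE factors and genes of mTORC1 at the lysosome, 7 of 17 tested were lower and none higher. After median-ratio scaling 3 were lower, the same share as the 17.6% of all tested genes. The 7 were Flcn, Rraga and 5 Lamtor genes of the Ragulator complex, which anchors mTORC1 to the lysosome, a grouping made after their values were seen. After median-ratio scaling Lamtor1, Lamtor4 and Lamtor5 were called and Lamtor2 and Lamtor3 were not. Lamtor1 stood at 45.6 ± 4.09 FPKM in Sg-C3 and 86.5 ± 7.26 FPKM in Sg-Con (log2 fold change -0.91, SE 0.10, adjusted p = 0.00194). Lamtor3, Lamtor4 and Lamtor5 had log2 fold changes of -0.45, -0.46 and -0.49. The relatives of Tfeb, Tfe3, Mitf and Tfec, did not pass, at log2 fold changes of -0.19, -0.24 and -0.46, but Tfec did without Sg-C3 replicate 2 (-0.71, adjusted p = 0.0389).

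Other hydrolases and other membrane proteins held large changes in both directions. The 28 genes listed as other hydrolases include Gm2a and Hgsnat, which are not hydrolases. Of these 28 genes 12 were lower and 4 higher, against 31.7% and 12.7% of all tested genes. After median-ratio scaling 3 were lower and 4 higher, against 17.6% and 19.6%. Arsg, 1 of the 12, passed the filter on low values only through its Sg-Con libraries, so its direction was favoured by the filter. It stood at 0.79, 0.83 and 0.83 FPKM in Sg-C3 and at 1.47, 3.63 and 1.56 FPKM in Sg-Con. Leaving out Sg-C3 replicate 1 gave 6 lower genes, leaving out replicate 2 of that group gave 4, and leaving out Sg-Con replicate 1 or 2 gave 8. Hyal1, a hyaluronidase, stood at 1.21, 0.61 and 1.46 FPKM in Sg-C3 libraries and at 6.03, 8.40 and 5.98 FPKM in Sg-Con libraries (log2 fold change -1.91, SE 0.20, adjusted p = 0.00157). Hyal2 and Hgsnat, an acetyltransferase of heparan sulfate breakdown, had log2 fold changes of -0.98 and -1.30 (adjusted p = 0.00229 and 0.00494). Plbd1, a phospholipase B-like gene, averaged 106 ± 26.9 FPKM in Sg-C3 and 29.2 ± 14.7 FPKM in Sg-Con (log2 fold change 1.93, SE 0.38, adjusted p = 0.00810). Acp5, the tartrate-resistant acid phosphatase, and Gm2a, the GM2 activator, which like the saposins presents lipid to an enzyme, were higher as well, at 1.22 and 0.74 (adjusted p = 0.00828 and 0.00380), and so was Rnaset2a at 0.56 (adjusted p = 0.00347), whose near-identical copy Rnaset2b can share its reads.

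Of 28 other membrane proteins 12 were lower and 7 higher, against 31.7% and 12.7% of all tested genes. After median-ratio scaling 7 were lower and 8 higher, against 17.6% and 19.6%. Leaving out Sg-C3 replicate 1 or Sg-Con replicate 2 gave 4 higher genes, and leaving out Sg-C3 replicate 2 or Sg-Con replicate 1 gave 3. The count of lower genes was 8 with Sg-C3 replicate 1 left out. Slc15a3, a histidine and peptide transporter, stood at 584.87, 653.60 and 512.83 FPKM in Sg-C3 and at 219.69, 201.08 and 280.26 FPKM in Sg-Con (log2 fold change 1.32, SE 0.15, adjusted p = 0.00189). Slc11a1, the NRAMP1 metal transporter, averaged 239 ± 11.2 FPKM in Sg-C3 and 101 ± 26.2 FPKM in Sg-Con (log2 fold change 1.27, SE 0.19, adjusted p = 0.00351). The cation channel gene Tpcn1 stood at 2.80, 3.07 and 5.68 FPKM in Sg-C3 and at 14.66, 14.20 and 12.57 FPKM in Sg-Con (log2 fold change -1.66, SE 0.21, adjusted p = 0.00246). Slc17a5, the sialic acid exporter, and the cobalamin transporter gene Abcd4 had log2 fold changes of -1.19 and -1.02 (adjusted p = 0.00165 and 0.00151). The lists held genes at 1 or more in both directions, where no member reached 1 upward and 4 members, Atp6v0a1, Arsb, Sgsh and Galc, passed -1.

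**Figure D4:**
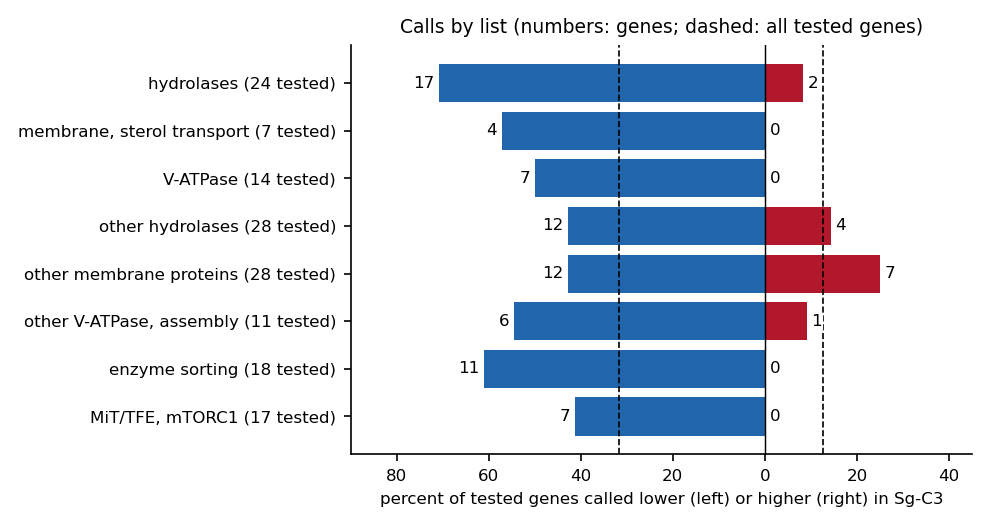
Percent of tested genes called lower (left, blue) or higher (right, red) in Sg-C3 by limma in each list of lysosomal genes, with the number of genes at the end of each bar and dashed lines at 31.7% lower and 12.7% higher for all tested genes. Hydrolases, with Psap counted among them, have 17 lower and 2 higher of 24, against 11 and 3 after median-ratio scaling. The other hydrolases then have 3 lower and 4 higher. Under that scaling 17.6% of all tested genes are lower and 19.6% higher.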

How the data were processed

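RNA was extracted with Trizol from macrophages isolated by flow cytometry, and the labels' protocols mention 2 library kits, TruSeq and MGIEasy. The submitters' processing notes list Bowtie 0.12.2 and mm8. How FPKM was computed is not stated there. The deposited table gives FPKM with 2 decimals per gene and library, per the file headers, and no counts, so tests for counts were not run. Replicates were numbered in accession order. A gene was tested if 3 or more of the 6 libraries reached 1 FPKM, by limma 3.58.1 (R 4.3.3) with trended eBayes on log2(FPKM + 1), with Benjamini-Hochberg adjustment over all tested genes. SE is limma's moderated standard error. Tables and figures were made with Python 3.11.15, pandas 2.3.3 and matplotlib 3.10.9.

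Depth was read from 434 short non-coding genes. With 36 bases taken from each gene's length, 88.3% to 93% of the low values used were whole within 0.1 read. Both the offset and the depth were picked for that share, and are estimates.

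The fit was tested on 10 simulated sets of 11198 genes with 200 changed, with 78.8% recovered at 2-fold, 95.6% at 4-fold and 4.82% false among the calls. The simulated sets held few changed genes, none of them low, and no shift of the whole table. In the data 44.4% of tested genes were called, and most members changed by less than 2-fold. The simulated rates therefore need not hold for these calls. Alternatives were a pseudocount of 0.1, no filter, a mean of at least 5 FPKM, quantile normalization, median-ratio scaling over tested genes, array weights, title style as a covariate and each library left out. The members and lists were chosen with earlier results of these data known. All members may be named, with values in every library for the 12 called members of largest change without overlap and for Tfeb, Lamp1, Psap, Atp6v0d1 and Atp6v0d2. Of each further list the 4 smallest p and any called gene with a log2 fold change of at least 1 in size are named. Ppt1, Gla, Lipa, Atp6v1a and Atp6v1b2 were also given in every library after their values were seen. Promoters were matched by gene identifier to RefSeq's GRCm38.p6. That build differs from mm8, and the deposited table holds no coordinates. The B cell marker list is not reported here.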

Additional observations from a re-analysis of the deposited data

How the results depend on the processing

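Under 13 alternatives, 17 of the 30 called members kept their call in all. After median-ratio scaling lower and higher calls over all genes numbered 1971 and 2198 (47.3% lower, against 71.5% as deposited and 56.9% after quantile normalization), and lower calls numbered 16 for all members, 11 for hydrolases, 2 for membrane genes and 3 for the pump. After quantile normalization 1 member, a hydrolase, was higher. With each library left out, calls ranged from 1970 to 3639 lower and from 810 to 1423 higher over all genes, 21 to 26 lower and 1 to 2 higher over members, 14 to 17 lower and 1 to 2 higher over hydrolases, 3 to 4 lower over membrane genes and 4 to 5 lower over the pump. Of the 13 that did not, Naglu, Aga, Ids and Lamp2 lost the call after median-ratio scaling only, at adjusted p of 0.0504, 0.0513, 0.0597 and 0.0555. Log2 fold changes of uncalled members changed sign after median-ratio scaling for Man2b1 (0.033), Cd63 (0.0025), Atp6v0c (0.016), Atp6v1d (0.0034) and Atp6v1h (5.3e-05), for Atp6v0b without Sg-C3 replicate 1 (-0.047) or Sg-Con replicate 1 (-0.0066), with a range of -0.047 to 0.17 over the libraries left out, and for Lipa without Sg-Con replicate 2 (-0.060, range -0.060 to 0.39). The osteoclast gene Nfatc1, not called, changed sign after quantile normalization (0.025), after median-ratio scaling (0.092) and without Sg-Con replicate 1 (0.0023, range -0.16 to 0.0023). Vma21 and Lamtor3 lost their calls after median-ratio scaling (0.0574 and 0.0627). With title style as a covariate, 4 pump genes were lower, and Tcirg1 was not called (0.0593). The filter at a mean of 5 FPKM left out Atp6v0d2. Where a scaling changed a count, the cause was not tested. No paired analysis was possible because the labels give the groups no shared replicate numbers.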

Other observations

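Osteoclasts secrete acid through a V-ATPase with the a3 and d2 subunits, and genes known from them went both ways. Of 8 tested, 5 were higher in Sg-C3 and 1 lower, where 12.7% and 31.7% of all tested genes were. Ocstamp and Dcstamp, genes of membrane proteins that act in the fusion of osteoclast precursors, averaged 42.9 ± 3.01 FPKM in Sg-C3 and 6.34 ± 5.05 FPKM in Sg-Con, and 7.59 ± 3.17 FPKM in Sg-C3 and 1.06 ± 0.589 FPKM in Sg-Con (log2 fold changes 2.79 and 2.03, SE 0.41 and 0.30, limma adjusted p = 0.00352 and 0.00338). Both were called under every alternative that tested them. Ctsk, the collagen-degrading cathepsin K, stood at 8.92, 1.75 and 9.82 FPKM in Sg-C3 and at 18.15, 33.83 and 32.52 FPKM in Sg-Con (log2 fold change -2.08, SE 0.52, adjusted p = 0.0175, and 0.0524 without Sg-Con replicate 2). Itgb3, at 0.54, was not called at a pseudocount of 0.1 (0.0582) or without Sg-Con replicate 1 (0.105) or 2 (0.0997), and Acp5 and Tcirg1 are given above. The count of higher genes was 3 without Sg-C3 replicate 1, 2 or 3 or Sg-Con replicate 2. Itgb3 passed the filter on low values only through its Sg-C3 libraries, at 1.08, 1.16 and 1.08 FPKM, against 0.18, 0.40 and 0.85 FPKM in Sg-Con. Its direction was thus favoured by the filter, and without any 1 Sg-C3 library it was not tested, which left 7 genes. Nfatc1, a transcription factor of osteoclast formation, and Mmp9, a gelatinase, did not pass, at log2 fold changes of -0.09 and -0.60 (limma adjusted p = 0.504 and 0.143).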
